A study of Mus musculus with 2 samples.

Results

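Thrombospondins, fibronectin, tenascins, periostin, the SPARC proteins and osteopontin are secreted glycoproteins through which cells attach to, or detach from, the extracellular matrix. The 10 genes described here are Thbs1, Thbs2, Thbs4, Fn1, Tnc, Tnxb, Postn, Sparc, Sparcl1 and Spp1, of 32285 genes in the count matrix. They were chosen by name, with their UMI levels in these skin cells already known, and were read in 3 classes of cells gated on marker genes (fibroblast, epithelial and myeloid). The class levels and the ratios between classes are therefore a description and were not tested.

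The material was whole skin of C57BL/6 mice aged 8 weeks, made into single cells with Liberase and DNase. The study set control skin beside skin in which neutrophils had been removed with antibody clone 1A8 against Ly6G, given on 2 consecutive days in otherwise unchallenged mice. Cells of both conditions carried hashtag antibodies and were sequenced as 1 pooled RNA library. Barcode names carry no condition and the hashtag counts were not analysed here, so control and depleted skin were not compared, the number of mice is unknown, and every value below is for the mixture.

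Adhesive glycoproteins of this kind hold several binding modules in 1 polypeptide: some bind collagens, proteoglycans or growth factors, and others bind integrins, syndecans, CD36 or CD47 on cells. Fibronectin is assembled into fibres by the cells that bind it, while thrombospondins, tenascin C, SPARC and osteopontin are called matricellular because they change how a cell reads its matrix more than they build it. In skin the dermal fibroblast is known as the main source of the structural members, and macrophages, platelets and keratinocytes are known sources of thrombospondin 1, fibronectin and osteopontin, above all in wounds.

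A sequence feature that the choice of genes did not use is the integrin-binding tripeptide Arg-Gly-Asp. Its share over all mouse coding sequences was not computed, so the count below is not read as a trait of the 10 genes. It was encoded in 5 of the 10 coding sequences (Fn1, Spp1, Thbs1, Thbs2 and Thbs4) and was not found in those of Tnc, Tnxb, Postn, Sparc and Sparcl1, in the longest complete coding transcript of each gene in GENCODE M21 on GRCm38 (mm10). The stretches below show the site in each of the 5 genes on the coding strand, 5′ to 3′, with the Arg-Gly-Asp codons in capitals. Fn1 and Thbs4 each held a second copy, which is not shown.
Fn1: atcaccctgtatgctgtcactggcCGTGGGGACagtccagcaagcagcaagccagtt
Spp1: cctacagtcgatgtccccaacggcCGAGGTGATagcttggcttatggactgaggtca
Thbs1: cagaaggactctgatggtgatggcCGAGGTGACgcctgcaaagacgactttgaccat
Thbs2: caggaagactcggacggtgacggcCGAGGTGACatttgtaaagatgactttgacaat
Thbs4: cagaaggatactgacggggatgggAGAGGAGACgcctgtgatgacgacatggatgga

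The codons in capitals lie at chr1:71606746-71606754 on the minus strand in exon 30 of 46 of Fn1, and at chr5:104439481-104439489 on the plus strand in exon 7 of 8 of Spp1. For the thrombospondins they lie at chr2:118122882-118122890 on the plus strand in exon 18 of 22 of Thbs1, at chr17:14671484-14671492 on the minus strand in exon 18 of 22 of Thbs2, and at chr13:92762788-92762796 on the minus strand in exon 13 of 22 of Thbs4. Counted from the start codon, these are codons 1614 to 1616 of Fn1, 145 to 147 of Spp1, 927 to 929 of Thbs1, 928 to 930 of Thbs2 and 564 to 566 of Thbs4.

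Thbs1 was the single member of the 10 whose coding sequence also held Lys-Arg-Phe-Lys, the motif through which thrombospondin 1 is known to activate latent TGF-beta. It is shown because Thbs1 is also the member whose class pattern differed from those of Thbs2 and Thbs4 (below). The 4 codons, in capitals, are codons 431 to 434 and span the junction of exons 8 and 9, between chr2:118117651-118118166 on the plus strand.
Thbs1 TGF-beta motif: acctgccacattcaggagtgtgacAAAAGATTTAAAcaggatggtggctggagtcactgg

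After barcodes with under 200 genes or over 20% mitochondrial UMIs (unique molecular identifiers, the counted molecules) were set aside, 8127 of 8367 barcodes remained, with 507 to 58199 UMIs each and a median of 9708. A class took a barcode with at least 3 of its own 8 markers at 2 or more UMIs and at most 1 marker of each other class, lymphoid included. This gave 3549 fibroblast, 1275 epithelial and 1651 myeloid barcodes, with median UMIs of 11329, 10626 and 8922. At the edge of the rule, 58, 37 and 113 barcodes of these classes held exactly 3 markers, and 87, 30 and 91 others held exactly 2 and were left out. The summed markers of each gate stood at 22847, 23089 and 14850 CPM (UMIs per 1000000 UMIs of the class) in the fibroblast, epithelial and myeloid class, and at 38.9 to 119 CPM in the 2 classes they do not mark. The gates select on these same markers, so these sums are no independent check of the classes. Another 1528 barcodes were in no class, among them 241 of the 305 called doublets. Over all barcodes, 350 had enough markers for more than 1 class and 997 for none. Blood endothelial markers summed to 59.6 CPM in the fibroblast class, with 7 of 8 detected and Cldn5 at 0. Lymphatic endothelial, skeletal muscle and melanocyte markers summed to 234, 276 and 237 CPM in that class. The part of such cells in any level below was not tested. Each class is a sum over 1 library, so the 95% intervals below cover counting error only, and no test between conditions or animals could be made.

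Compared with the myeloid class, 7 of the 10 genes were over 2-fold higher in the fibroblast class and none was over 2-fold lower, and Thbs1, Fn1 and Spp1 lay within 2-fold. Among all 15811 genes with 20 or more UMIs in these 2 classes, 30.4% were over 2-fold higher in the fibroblast class and 20.2% over 2-fold higher in the myeloid class. Compared with the epithelial class, 9 of the 10 were over 2-fold higher in fibroblasts, where 28.2% of 15643 genes were, and Thbs1 alone was over 2-fold higher in the epithelial class, as were 19.9% of all genes. The median log2 ratio over the members was 6.20 for fibroblast over myeloid and 4.21 for fibroblast over epithelial, against 0.17 and −0.03 over all genes. Between the other two classes, Fn1 and Spp1 were over 2-fold higher in the myeloid class, where 23.9% of 14244 genes were. Thbs2, Tnc, Tnxb, Postn and Sparc were over 2-fold higher in the epithelial class, where 27.8% of genes were. For Sparc that call was lost with clusters as classes, where the myeloid level was 0.532 of the epithelial. Thbs1 and Sparcl1 lay within 2-fold, and Thbs4, with 12 UMIs in these 2 classes, was below the minimum of 20. For Sparcl1 this depended on the gates. Its myeloid level was 0.366 of the epithelial with no marker of the other gates allowed, and 2.37-fold the epithelial with at most 2 allowed. The members were chosen with these contrasts known, so these counts are given for orientation.

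**Figure D1:**
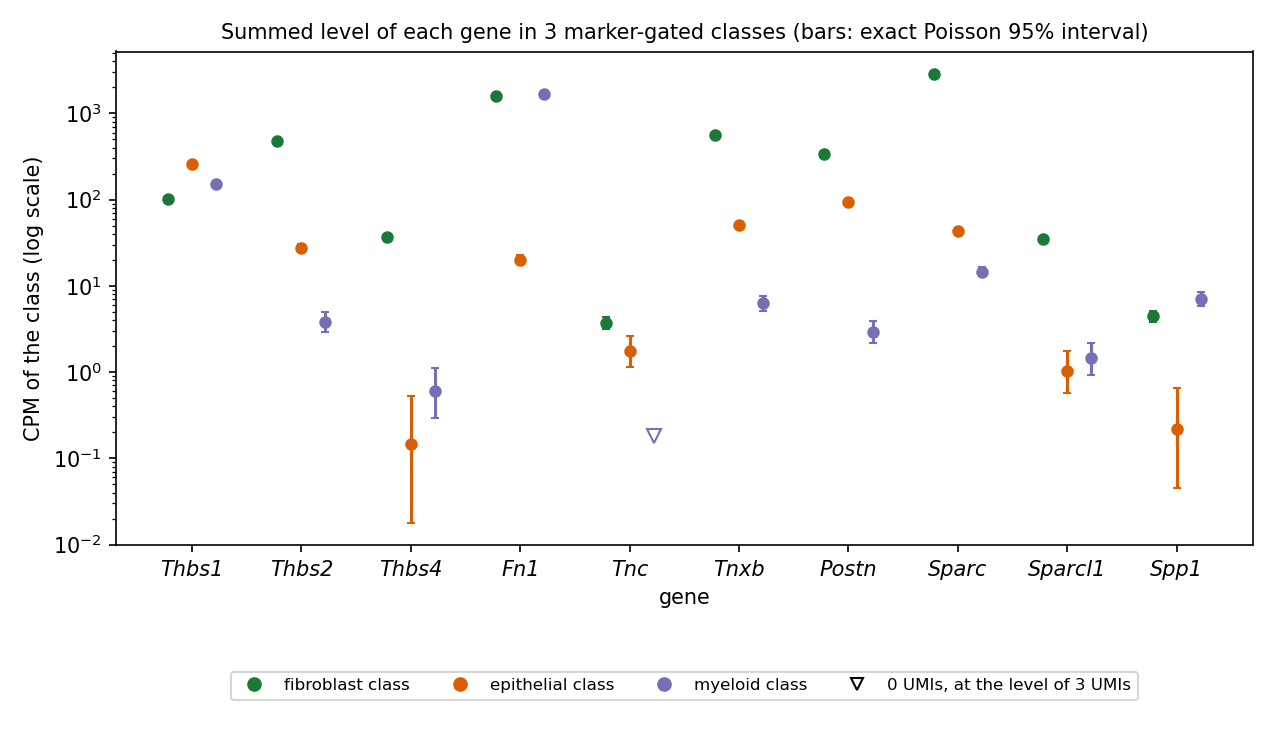
Level of each of the 10 genes (CPM of the class, log scale) in the fibroblast, epithelial and myeloid class, with exact Poisson 95% intervals that are smaller than the point where not visible. The open triangle stands for 0 UMIs and is drawn at the level of 3 UMIs. Fn1 is at 1572 and 1682 CPM in the fibroblast and myeloid class, Thbs1 is within 102 to 256 CPM in all 3 classes, and Sparc is at 2849 CPM in fibroblasts and 14.6 CPM in the myeloid class.

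Thbs1, which encodes the trimeric thrombospondin that activates latent TGF-beta and binds CD36 and CD47, was highest in the epithelial class. Its level was 256 CPM (95% interval 248 to 265; 3465 UMIs) there, 151 CPM (145 to 157; 2471 UMIs) in the myeloid class and 102 CPM (99.3 to 105; 4247 UMIs) in the fibroblast class. The epithelial level was 2.50-fold (2.39 to 2.62) the fibroblast level and 1.70-fold (1.61 to 1.79) the myeloid level, and the myeloid level was 1.47-fold (1.40 to 1.55) the fibroblast level. This order of the classes held under all 13 other settings tried. At least 1 Thbs1 UMI was seen in 35.8% of epithelial, 31.4% of fibroblast and 21.1% of myeloid barcodes. When each barcode was thinned to 1000 UMIs, which kept 1271, 3537 and 1648 barcodes, these shares were 13.5%, 7.78% and 8.13%. In the 124 lymphoid barcodes, whose median depth was 4565.5 UMIs, 3 Thbs1 UMIs were counted and 2.42% of barcodes had one.

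Within each class the gene was uneven, and 7822 barcodes in 26 clusters made without the 10 genes show where it sat. Among epithelial clusters, the basal keratinocyte-like cluster 4 was at 422 CPM (407 to 439), with a UMI in 52.2% of 578 barcodes, and held 23.9% of the Thbs1 UMIs of all clustered barcodes. The suprabasal keratinocyte-like cluster 6 was at 44.9 CPM, so the basal-like cluster was 9.42-fold (8.20 to 10.9) higher. The 2 clusters also differed in early-response and stress genes (Fos, Jun, Atf3, Hspa1a and 6 others, a list chosen after the data were seen), which summed to 14665 CPM in cluster 4 and 10586 CPM in cluster 6. In the classes, the 10 genes summed to 12674 CPM in the epithelial, 9049 CPM in the fibroblast and 8071 CPM in the myeloid class. Single genes of the list differed in their order: Atf3 was at 2560, 507 and 523 CPM, Fos at 2169, 1628 and 696 CPM, and Hspa1a at 988, 823 and 1561 CPM in the same classes. The part of tissue digestion in the Thbs1 levels was not tested.

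Among the 7 myeloid clusters, Thbs1 ranged from 7.57 CPM in macrophage-like cluster 12 to 1559 CPM (1395 to 1738) in the neutrophil-like cluster 22. The monocyte-like cluster 10 was at 630 CPM (593 to 669), which was 7.02-fold (6.46 to 7.62) the level of the 4 macrophage-like clusters together, at 89.8 CPM. The dendritic-like cluster 11 was lower than those, at 22.4 CPM. The neutrophil-like cluster held 40 barcodes with a median of 2782.5 UMIs, and fibroblast yardstick genes that lie outside the gate (Col3a1, Col6a2, Mfap4, Clec3b and Serpinf1) summed to 1464 CPM there. Over the 26 of its barcodes that met the myeloid gate, Thbs1 was as high, at 1660 CPM, while Sparc was at 13.7 CPM and Thbs2 and Postn had 0 UMIs. That gate allows at most 1 fibroblast marker, so these 26 barcodes were already selected for little fibroblast RNA. Among fibroblast clusters Thbs1 varied less, from 70.5 CPM in cluster 0 to 184 CPM in cluster 5, a ratio of 2.61 (2.38 to 2.87). Outside the 3 classes, the 19 barcodes of the pericyte or smooth muscle-like cluster 25 were at 1256 CPM (1060 to 1477).

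**Figure D2:**
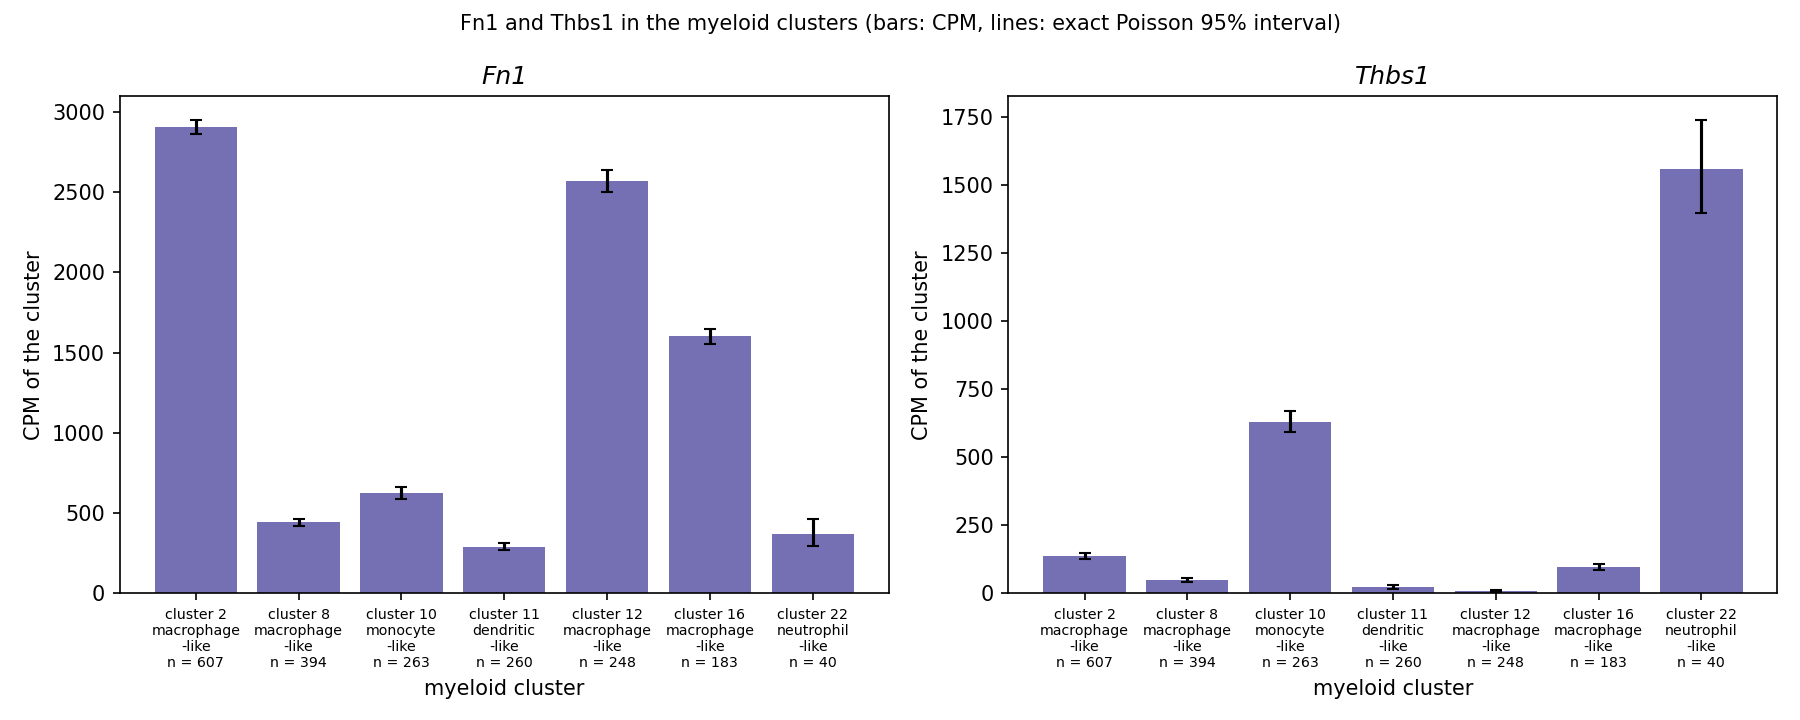
Level of Fn1 and Thbs1 (CPM of the cluster) in the 7 myeloid clusters, with exact Poisson 95% intervals as lines and n the number of barcodes. Fn1 is highest in macrophage-like clusters 2 and 12, at 2906 and 2570 CPM, and Thbs1 is highest in the neutrophil-like cluster 22 and the monocyte-like cluster 10, at 1559 and 630 CPM.

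Thbs2, the closest relative of Thbs1 and known for its part in collagen fibril assembly and in restraining vessel growth, had a different pattern. It was at 476 CPM (470 to 483; 19771 UMIs) in the fibroblast class, 27.8 CPM (25.0 to 30.7; 376 UMIs) in the epithelial class and 3.84 CPM (2.95 to 4.92; 63 UMIs) in the myeloid class. The fibroblast level was 17.1-fold (15.5 to 19.0) the epithelial and 124-fold (96.8 to 161) the myeloid level. A Thbs2 UMI was seen in 84.9% of fibroblast barcodes, and in 31.6% after thinning. It was present across all 7 fibroblast clusters, from 206 CPM in cluster 7 (led by Crabp1, Dkk2 and Slc26a7) to 753 CPM (715 to 793) in cluster 13 (led by Col1a1, Col1a2 and Dcn). In the epithelium it followed the same split as Thbs1, at 53.6 CPM in the basal-like cluster 4 and 5.58 CPM in the suprabasal-like cluster 6, a ratio of 9.61 (6.49 to 14.8).

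Thbs4, a pentameric thrombospondin best known from tendon and muscle, was confined in these data almost wholly to 1 fibroblast cluster. The class levels were 36.6 CPM (34.8 to 38.5; 1521 UMIs) in fibroblasts, 0.610 CPM (10 UMIs, 6 of them in 1 barcode) in myeloid and 0.148 CPM (2 UMIs) in epithelial barcodes. A Thbs4 UMI was seen in 2.76% of fibroblast barcodes, and the 10 barcodes with the most held 45.5% of the UMIs of the class. Cluster 5, led by Dcn, Mgp, Apod and Bgn, held 95.4% of all clustered Thbs4 UMIs at 355 CPM (337 to 374), with a UMI in 18.1% of its 480 barcodes. The next clusters were cluster 13 at 9.81 CPM (5.91 to 15.3) and dendritic-like cluster 11 at 2.85 CPM, the latter from 1 barcode. No other cluster exceeded 2.36 CPM. The ratio of fibroblast over epithelial level, 248 (68.5 to 2050), rests on the 2 epithelial UMIs.

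Fn1, the fibronectin gene and the source of the first sequence above, was the member with nearly equal levels in fibroblast and myeloid barcodes. It was at 1572 CPM (1560 to 1584; 65246 UMIs) in the fibroblast class, 1682 CPM (1662 to 1702; 27561 UMIs) in the myeloid class and 20.1 CPM (17.8 to 22.6; 272 UMIs) in the epithelial class. The myeloid level was 1.07-fold (1.05 to 1.08) the fibroblast level by summed UMIs, and the fibroblast level was 1.04-fold the myeloid level when every barcode weighed the same. No alternative setting moved this ratio past 2-fold. An Fn1 UMI was seen in 92.5% of fibroblast, 71.9% of myeloid and 12.6% of epithelial barcodes, and in 66.9%, 52.2% and 1.73% after thinning.

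The 2 near-equal class levels came from different spreads. In the fibroblast class 777 of 3549 barcodes were enough to hold 50% of the Fn1 UMIs, and in the myeloid class 224 of 1651. Macrophage-like clusters 2 and 12 were at 2906 CPM (2863 to 2950) and 2570 CPM (2500 to 2641), above every fibroblast cluster. Macrophage-like cluster 8, led by Retnla, C1qb and C1qa, was at 442 CPM, so cluster 2 was 6.58-fold (6.23 to 6.96) higher. The monocyte-like, neutrophil-like and dendritic-like clusters were at 626, 371 and 292 CPM. The neutrophil-like value rests on 78 UMIs, in a cluster where the fibroblast yardstick genes summed to 1464 CPM. The part of fibroblast RNA in that value was not tested. Fibroblast clusters ran from 1994 CPM (1951 to 2038) in cluster 9, led by Ptx3, Cxcl13 and Igfbp5, down to 793 CPM in cluster 5 and 68.5 CPM in cluster 7.

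Tenascin C, encoded by Tnc and known to appear at wound edges and around hair follicles, was rare in all 3 classes. The fibroblast class held 153 UMIs (3.69 CPM, 3.13 to 4.32), the epithelial class 24 UMIs (1.77 CPM, 1.14 to 2.64) and the myeloid class 0. The upper limit of that myeloid interval was 0.225 CPM, and the floor of 3 counts stood at 0.183 CPM. Barcodes of no class held more, 198 UMIs (17.3 CPM, 14.99 to 19.9). In the fibroblast and epithelial class, 73.9% and 75.0% of the UMIs lay in the 10 barcodes with the most. The fibroblast level was 20.1-fold that floor of 3 counts, and the lower limit of its ratio to the myeloid level was 16.2. It was 2.08-fold (1.35 to 3.34) the epithelial level. The ratio to the epithelial level dropped under 2-fold, to 1.67, when a gate needed 4 markers. By cluster, 49.6% of the clustered Tnc UMIs lay in cluster 7 at 76.3 CPM (65.2 to 88.8), 29.1% in cluster 5 at 23.7 CPM, and 9.5% in cluster 15 at 28.4 CPM (19.4 to 40.1). The 19 pericyte or smooth muscle-like barcodes of cluster 25 were at 121 CPM (66.3 to 203), from 14 UMIs.

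Tnxb encodes tenascin X, which spaces and stabilises dermal collagen and whose loss is known to cause a form of Ehlers-Danlos syndrome. It was at 565 CPM (558 to 573; 23469 UMIs) in fibroblasts, 51.1 CPM (47.3 to 55.0; 691 UMIs) in the epithelial class and 6.28 CPM (5.13 to 7.62; 103 UMIs) in the myeloid class. A Tnxb UMI was seen in 93.3%, 35.3% and 5.88% of barcodes, and in 41.2%, 5.66% and 0.789% after thinning. Fibroblast clusters other than cluster 7 lay between 501 and 1039 CPM, with cluster 13 the highest, and cluster 7 itself was at 21.0 CPM (46 UMIs), 49.5-fold (36.9 to 67.8) under cluster 13.

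Postn encodes periostin, which promotes collagen cross-linking and binds integrins. Its class levels were 335 CPM (330 to 341; 13920 UMIs) in fibroblasts, 94.3 CPM (89.2 to 99.6; 1276 UMIs) in the epithelial class and 2.93 CPM (2.16 to 3.88; 48 UMIs) in the myeloid class. The fibroblast over epithelial ratio of 3.56 (3.36 to 3.77) was 2.35 when every barcode weighed the same. The epithelial level came almost wholly from 1 cluster: cluster 15, which is basal keratinocyte-like, is led by Krt15 and Krt17 and had 4 of 6 hair follicle markers, was at 1126 CPM (1065 to 1190), with a UMI in 71.4% of its 185 barcodes. That was 363-fold (219 to 651) the level of suprabasal-like cluster 6, at 3.10 CPM, while the basal-like cluster 4 was at 6.5 CPM. Cluster 15 also exceeded each fibroblast cluster, of which cluster 13 was highest at 459 CPM (429 to 490). Fibroblast yardstick genes summed to 278 CPM in cluster 15, against 1703 to 11645 CPM in the fibroblast clusters.

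Sparc encodes a collagen-binding glycoprotein also called osteonectin, which takes part in procollagen handling. It was at 2849 CPM (2833 to 2865; 118244 UMIs) in fibroblasts, 43.8 CPM (40.4 to 47.5; 593 UMIs) in the epithelial class and 14.6 CPM (12.8 to 16.6; 240 UMIs) in the myeloid class. The fibroblast level was 65.0-fold (60.0 to 70.6) the epithelial and 195-fold (171 to 222) the myeloid level. A Sparc UMI was seen in 99.0% of fibroblast barcodes, and in 84.1% after thinning to 1000 UMIs. Fibroblast clusters ranged from 745 CPM in cluster 7 to 6058 CPM (5949 to 6168) in cluster 13, and the others lay between 2450 and 3370 CPM. In the lymphoid barcodes Sparc was at 23.4 CPM (12.8 to 39.2), which overlaps the myeloid interval.

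Sparcl1, a relative of Sparc that is known from vessel walls and is also called hevin, was a minority transcript of fibroblasts. It was at 35.0 CPM (33.3 to 36.9; 1454 UMIs) in the fibroblast class, 1.46 CPM (24 UMIs, 17 of them in 1 barcode) in the myeloid class and 1.03 CPM (14 UMIs, 9 in 1 barcode) in the epithelial class. The fibroblast level was 23.9-fold the myeloid and 33.9-fold the epithelial level, and 113-fold and 94.3-fold without called doublets. The pericyte or smooth muscle-like cluster 25 was at 2719 CPM (2427 to 3037) and held 16.7% of the clustered Sparcl1 UMIs in 19 barcodes. Among fibroblast clusters, cluster 5 held 46.5% of the clustered UMIs at 211 CPM (197 to 225), clusters 7 and 13 were at 102 and 100.2 CPM, and clusters 0, 1, 3 and 9 were between 3.80 and 12.3 CPM. Summed pericyte and smooth muscle markers in the fibroblast class were at 17.0 CPM, with all 6 detected, and their part in its Sparcl1 level was not tested.

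Spp1, the osteopontin gene, encodes a secreted phosphoprotein that binds integrins and CD44 and is known from activated macrophages and bone. It was rare in all 3 classes, at 7.08 CPM (5.85 to 8.49; 116 UMIs) in the myeloid class, 4.46 CPM (3.84 to 5.15; 185 UMIs) in the fibroblast class and 0.222 CPM (3 UMIs) in the epithelial class. The myeloid level was 1.59-fold (1.25 to 2.01) the fibroblast level by summed UMIs, but the fibroblast level was 1.31-fold the myeloid level when every barcode weighed the same, so the order of these 2 classes is not settled. A Spp1 UMI was seen in 3.27% of myeloid and 1.27% of fibroblast barcodes. Barcodes of no class held 207 Spp1 UMIs (18.1 CPM, 15.7 to 20.8), more than any class. The clusters were unequal within both classes. Cluster 7 was at 85.4 CPM (73.6 to 98.6) and held 39.0% of the clustered Spp1 UMIs, cluster 5 was at 21.5 CPM, and cluster 0 held 0 UMIs in 1144 barcodes. Of the myeloid clusters, neutrophil-like cluster 22 was highest, at 28.5 CPM from only 6 UMIs. Spp1 was at 18.5 CPM in dendritic-like cluster 11, 17.5 CPM in monocyte-like cluster 10 and 13.7 CPM in macrophage-like cluster 16. The other macrophage-like clusters were at 0.322 to 1.18 CPM. The NK or innate lymphoid-like cluster 14 was at 49.98 CPM (39.0 to 63.2), with 90.0% of its UMIs in 10 barcodes.

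**Figure D3:**
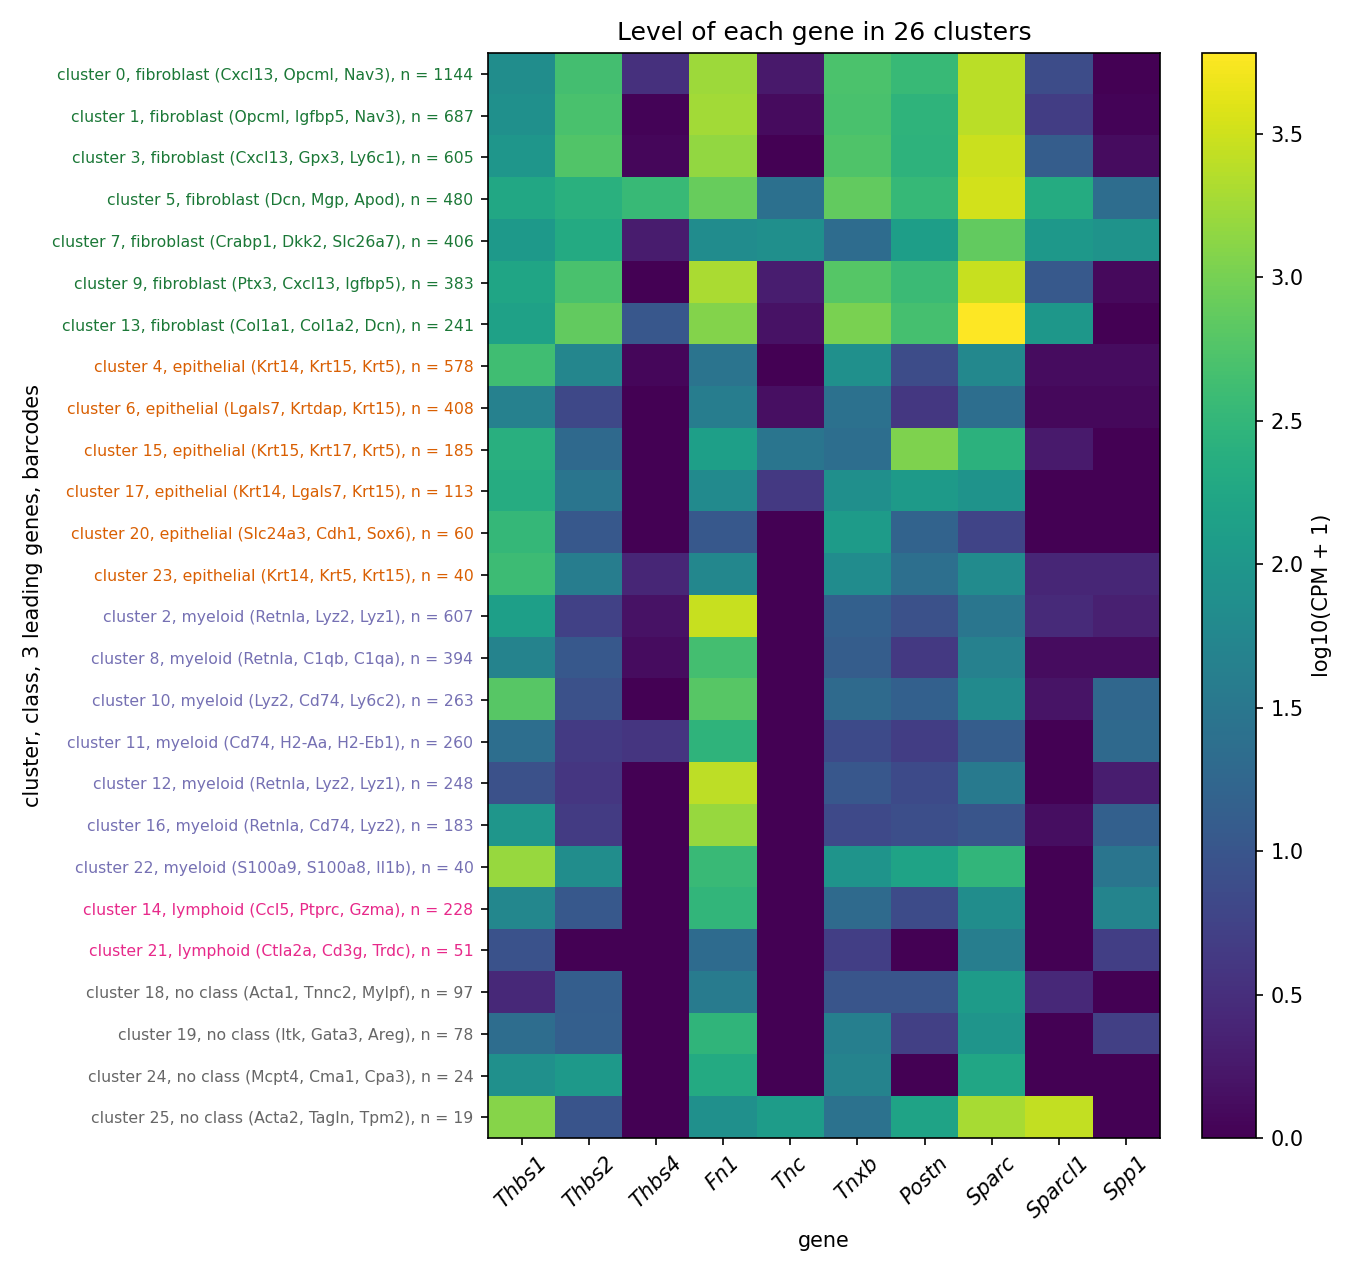
Level of the 10 genes (columns) in 26 clusters (rows), as log10(CPM + 1) on the colour scale; row labels give the class, the 3 leading genes and n, the number of barcodes. Thbs4 is bright in cluster 5 only, Postn reaches 1126 CPM in epithelial cluster 15, Sparcl1 reaches 2719 CPM in cluster 25, and cluster 7 is dim for Fn1 and Tnxb beside the other fibroblast clusters.

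Fibroblast RNA released during digestion can leave UMIs in other droplets, so the low levels were set beside a yardstick. The 5 fibroblast yardstick genes stood in the epithelial and myeloid classes at 0.373% and 0.612% of their fibroblast level, and the same shares of each member's fibroblast level gave the UMIs to be found from such carry-over alone. In the myeloid class Sparc had 240 UMIs against 286 from carry-over, Thbs2 63 against 47.7, Postn 48 against 33.6 and Tnxb 103 against 56.7. These 4 low myeloid levels are thus within 2-fold of carry-over and are not read as expression. Fn1 had 27561 against 158, Thbs1 2471 against 10.3 and Spp1 116 against 0.45. Thbs4 and Sparcl1 had 10 and 24 against 3.67 and 3.51, most of them in 1 barcode each. In the epithelial class Thbs1 had 3465 against 5.16, Postn 1276 against 16.9, Tnxb 691 against 28.5 and Thbs2 376 against 24.03. Sparc there had 593 against 144 and Fn1 272 against 79.3. For Fn1 a myeloid carry-over, scaled on C1qa, C1qb and C1qc, would add a further 88.5 UMIs, and 272 observed is 1.62-fold the sum of both. Summed over the epithelial class, Fn1 is thus also within 2-fold of carry-over, and this class level is not read as expression. With carry-over subtracted, the fibroblast over epithelial ratio of Fn1 was 203 in place of 78.2. Among epithelial clusters, cluster 15 was highest in Fn1, at 137 CPM (154 UMIs), and in Sparc, at 271 CPM (305 UMIs). Of its 185 barcodes 138 were in the epithelial class, and carry-over is not given by cluster here.

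**Figure D4:**
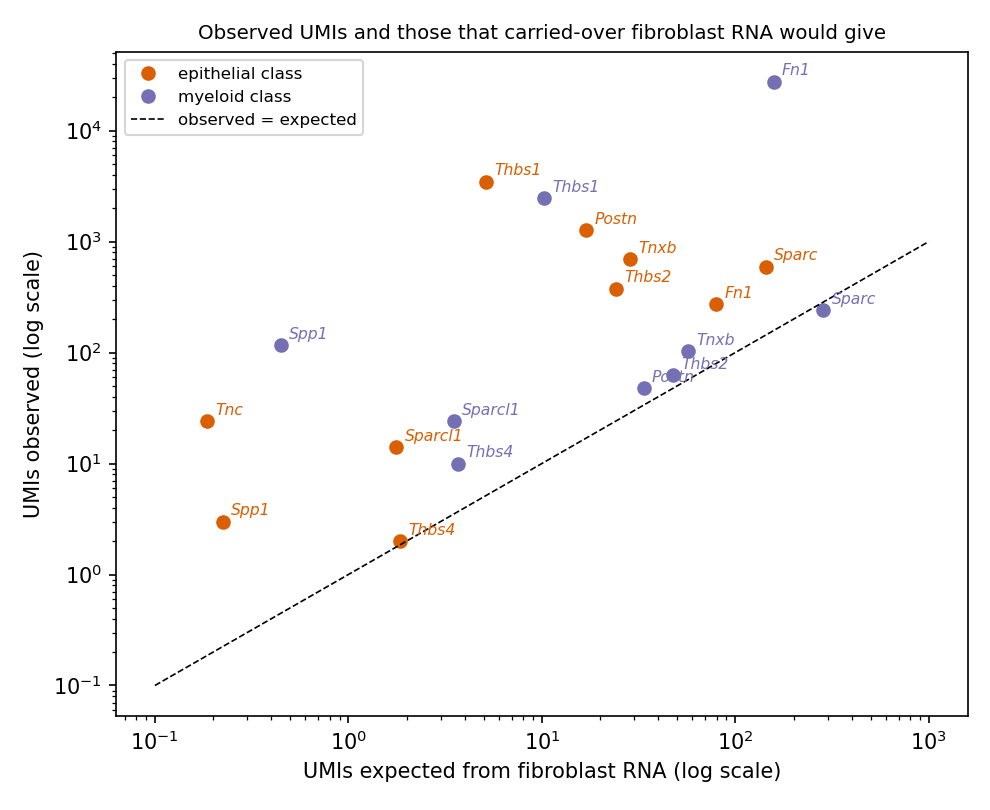
UMIs observed in the epithelial and myeloid class (log scale) against the UMIs that carried-over fibroblast RNA would give (log scale), 1 point per gene and class, with the dashed line where both are equal. Tnc is not drawn for the myeloid class, where it had 0 UMIs. Myeloid Sparc, with 240 UMIs observed against 286, lies close to the line, and Fn1 and Thbs1 lie far above it.

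Across the 26 clusters, the most alike pairs of members lay among Thbs2, Tnxb, Sparc and Postn. Pearson's r of log2(CPM + 10), given as a description over clusters of 1 library that share its depth and carry-over, was 0.89 between Thbs2 and Tnxb, 0.87 between Thbs2 and Sparc, and 0.84 between Postn and Sparc. It was 0.81 between Tnc and Sparcl1, both high in cluster 25. The remaining pairs among Thbs2, Tnxb, Sparc and Postn were lower than that. They were at 0.78 for Tnxb and Sparc, 0.72 for Thbs2 and Postn, and 0.71 for Tnxb and Postn. The thrombospondins were less alike: r was 0.19 between Thbs1 and Thbs2, 0.07 between Thbs1 and Thbs4, and 0.30 between Thbs2 and Thbs4. Between Thbs1 and Fn1 it was −0.08.

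The genes with the most similar pattern were sought among 12496 genes with 200 or more UMIs, by the same r over the 26 clusters. Thbs4 was followed by Meox1 (0.99), C7 (0.97) and F3 (0.90), Thbs2 by Gpc3 (0.96), Mmp14 (0.96) and Fbln5 (0.96), and Sparc by Serpinh1 (0.98), Serpinf1 (0.96) and C1s1 (0.96). For Tnxb they were Efemp1 (0.92), Casp12 (0.92) and Bmp1 (0.92), for Postn Fzd2 (0.94), Hspg2 (0.92) and Il11ra1 (0.91), and for Fn1 Qpct (0.95), Npc2 (0.92) and Lpl (0.91). Sparcl1 was nearest to Frmpd4, Trhde and Meox2 (0.96 each) and Tnc to Gucy1b1 (0.93) and Aqp1 (0.92). Thbs1 and Spp1 had no close match: the highest values were 0.77 with Myo1c, 0.76 with Crk and 0.76 with Gm13986 for Thbs1, and 0.75 with Prdm1, 0.70 with Irf8 and 0.68 with Dusp2 for Spp1.

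Other adhesive glycoproteins, a list of 41 genes, leaned the same way as most members. Of 35 with enough UMIs, 31 were over 2-fold higher in the fibroblast than in the myeloid class and 3 lower (Edil3, Tgfbi and Vwf), with a median log2 ratio of 5.41; over all genes the shares were 30.4% and 20.2%. Against the epithelial class 29 of 35 were over 2-fold higher in fibroblasts and 2 lower (Npnt and Tgfbi), with a median of 4.55, where 28.2% and 19.9% of all genes were. Between myeloid and epithelial class, 10 of 29 were higher in the myeloid class, 12 in the epithelial class and 7 within 2-fold, where 23.9% and 27.8% of all genes were higher in each. Thbs3, the thrombospondin outside the 10 genes with enough UMIs, was at 91.0 CPM in fibroblasts, 22.4-fold (17.2 to 29.8) the epithelial and 59.6-fold (40.3 to 92.3) the myeloid level, like Thbs2 and unlike Thbs1. Tgfbi, a periostin relative, was at 475 CPM in the myeloid, 262 CPM in the epithelial and 128 CPM in the fibroblast class. Ccn1, a matricellular integrin ligand, was at 675 CPM in fibroblasts and 666 CPM in the epithelial class. Npnt, nephronectin, was at 24.1 CPM in the epithelial and 0.337 CPM in the fibroblast class. Vwf, which endothelial cells and platelets are known for, had 153 UMIs in the myeloid class (9.33 CPM) and 3 in the fibroblast class. Edil3 was at 3.90 and 1.20 CPM in those classes, and Matn4, within 2-fold, at 2.93 and 3.93 CPM. The other leading genes were Efemp1 (761 CPM) and Fndc1 (557 CPM) in fibroblasts, Smoc2 (163 CPM) in the epithelial class, and Ecm1 (194 CPM) and Emilin2 (150 CPM) in the myeloid class. Ccn1, Ccn2, Smoc1 and Smoc2 lay within 2-fold between fibroblast and epithelial class.

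Receptors of these proteins were counted in the same way. Of 29 listed, 10 were over 2-fold higher in the fibroblast than in the myeloid class, 12 lower and 7 within 2-fold, with a median log2 ratio of 0.05. The fibroblast count is near the 30.4% over all genes, and 20.2% of all genes were higher in the myeloid class. Against the epithelial class, 16 of 28 were over 2-fold higher in fibroblasts and 8 lower (Itga2, Itga3, Itga4, Itga6, Itgb6, Itgb8, Sdc1 and Sdc4), with a median of 1.49, where 28.2% and 19.9% of all genes were. Between myeloid and epithelial class, 16 of 29 were higher in the myeloid and 9 in the epithelial class, where 23.9% and 27.8% of all genes were. Among receptors that thrombospondin 1 binds, Cd36 was at 136 CPM in the myeloid class against 3.11 CPM in fibroblasts and 0.813 CPM in the epithelial class. Cd47 was present in all 3, at 586 CPM in fibroblasts, 407 CPM in myeloid and 139 CPM in epithelial barcodes. Calr was at 671, 658 and 249 CPM, and Lrp1, the endocytic receptor for thrombospondins, at 509, 132 and 33.3 CPM in the same order. Of the integrin chains that read Arg-Gly-Asp, Itga5 was at 63.7 CPM in fibroblasts and 49.9 CPM in myeloid barcodes, and Itgav at 133 and 56.2 CPM. Itgb3 was 15.4-fold (11.8 to 20.5) and Itgb5 20.2-fold (16.7 to 24.7) higher in fibroblasts than in the myeloid class, and Itga8 and Itgb6 were 2.84-fold and 2.92-fold higher. Itgb1, the partner of Itga5, was at nearly the same level in both (237 and 228 CPM), and Itgb8, with 30 UMIs in each, was 2.53-fold (1.47 to 4.35) higher in the myeloid class. Cd44, a receptor of osteopontin, was at 655 CPM in the myeloid, 152 CPM in the epithelial and 130 CPM in the fibroblast class. The epithelial class was led by Sdc4 at 1088 CPM and Itga6 at 591 CPM. Cd36, Itga5, Itga8, Itgav, Itgb1, Itgb3, Itgb5, Itgb6 and Itgb8 are named for the ligands they bind and were picked after their values were seen.

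Some reads cannot be assigned with certainty. For overlaps between opposite strands this is because the sources used here do not say whether the counting used strand. Thbs1, Fn1, Tnc, Tnxb and Sparcl1 each overlap at least 1 annotated gene on the opposite strand (Gm29233, Apol7d, 8030451A03Rik, Gm24389 with Cyp21a2-ps, and Gm26703). Spp1 overlaps Gm42793 on its own strand, where strand cannot separate the reads. Thbs2, Thbs4, Postn and Sparc overlap no annotated gene.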

How the data were processed

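The authors deposited 1 matrix of counts: UMIs as whole numbers, genes by barcodes. It was made with Cell Ranger (version not given in the sources used here) on mm10, per the submitters' processing notes, with no normalization. It holds 83725065 UMIs in 8367 barcodes. From it, UMIs were summed per class or cluster and divided by the total (CPM), with exact Poisson intervals for levels, exact conditional intervals for ratios, Clopper-Pearson intervals for shares, and a floor of 3 counts. Calls are 2-fold ratios with 20 or more UMIs in both classes together.

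Scrublet (in Scanpy 1.11.5) called 305 barcodes (3.753%) as doublets; they stayed in the gates and were left out of clustering (2000 variable genes less the members, 30 components, 15 neighbours, leidenalg 0.10.2 at resolution 1). A cluster is named from marker lists, needing at least 3 of its markers. SciPy 1.17.1 and Python 3.11.15 were used, and the ratio code was tested on simulated data.

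All 10 members are named. Of the other lists, the 3 highest genes per class and each side of 5 or fewer were named, and per member the 3 most similar genes (1 of those of Tnc is not reported here). Exceptions are stated. The members and lists were chosen with earlier results of these data known. The early-response list and the C1q yardstick were added after the data were seen.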

Additional observations from a re-analysis of the deposited data

How the results depend on the processing

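Over 13 alternatives to the main settings (filters, doublets, gates, weighting, carry-over, clusters as classes, UMI minimum, the 10 highest barcodes left out), 104 recomputed counts of genes past 2-fold all stayed within 1.5 times the main counts. Of the ratios between classes, 246 recomputed values moved by less than their counting error and 86 by more, and no 2-fold call changed direction. Outside 2-fold calls, 3 ratios changed sign: Fn1 and Spp1 of fibroblast over myeloid with every barcode weighted alike (log2 0.06 and 0.39, against −0.10 and −0.67), and Sparcl1 of myeloid over epithelial with no marker of the other gates allowed (−1.45 against 0.50). With clusters as classes, the fibroblast over myeloid ratio was 80.2 for Sparc, 38.0 for Postn, 45.2 for Tnxb and 76.8 for Thbs2, fibroblast over epithelial was 34.3 for Fn1, and myeloid over epithelial was 0.532 for Sparc, no longer past 2-fold. With carry-over subtracted, fibroblast over myeloid was 544 for Thbs2, 487 for Postn and 207 for Tnxb, fibroblast over epithelial was 203 for Fn1 with the C1q genes as yardstick, and no value is given for Sparc, whose observed UMIs were fewer. The carry-over yardstick that includes Apoe could not serve for myeloid RNA in the epithelial class, where it stood at 37.4% of its myeloid level, so the C1q genes were used, as chosen after the data were seen. The depth limits Thbs4, Tnc, Sparcl1 and Spp1, each with 24 or fewer UMIs in at least 1 class. No paired analysis was possible because the values come from 1 pooled RNA library whose barcode names carry no condition or animal, and the hashtag counts were not analysed here.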

Other observations

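Macrophage-like clusters 2 and 12 shared all of their 10 leading genes but not their Thbs1 level, which was 137 CPM in cluster 2 and 7.57 CPM in cluster 12, a ratio of 18.1 (10.9 to 32.5). Among 4710 genes ranked by the log2 ratio between the 2 clusters, Thbs1 came at rank 5, after Tmtc2, Slc7a11, Mpp7 and Lsmem1 and just before Nfkb1 (1244 and 141 CPM). Il1b was at 764 and 105 CPM. At the other end lay Cd5l, C1qc and C1qb, the last at 555 CPM in cluster 2 and 1467 CPM in cluster 12. Fn1 differed much less, at 2906 and 2570 CPM, a ratio of 1.13 (1.10 to 1.17). Median UMIs were 9117 and 7612, and the 10 listed early-response genes summed to 7344 and 6447 CPM. Nr4a3, which is not in that list, came at rank 8, at 446 and 54.5 CPM. These genes were picked after their values were seen.

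Fibroblast-like cluster 7, led by Crabp1, Dkk2 and Slc26a7, combined low Fn1 (68.5 CPM) and Tnxb (21.0 CPM) with the highest Spp1 of the 26 clusters (85.4 CPM) and the highest Tnc of the fibroblast clusters (76.3 CPM). Of its 406 barcodes, 91 were in the fibroblast class and 315 in no class, so most of it lies outside the class levels. Its median depth was 4670.5 UMIs, and its early-response genes summed to 19121 CPM, against 6782 to 12594 CPM in the other fibroblast clusters. The fibroblast yardstick genes were low in it too, at 1703 CPM against 7288 to 11645 CPM in the other fibroblast clusters. Whether its low Fn1 and Tnxb go beyond that was not tested. In the gated barcodes, Spp1 was at 125 CPM and Sparc at 2042 CPM, against 745 CPM for Sparc in the whole cluster.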
